A study of Homo sapiens with 12 samples.

Results

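The 7 genes described here encode the cyclin-dependent kinase (CDK) inhibitors of the CIP/KIP family (CDKN1A, CDKN1B and CDKN1C, whose proteins are p21, p27 and p57) and of the INK4 family (CDKN2A, CDKN2B, CDKN2C and CDKN2D, which encode p16, p15, p18 and p19). They were chosen by gene symbol, each symbol matched 1 gene ID, and they are 7 of the 62703 gene IDs in the deposited count table. The RNA came from H69, a human cholangiocyte line (cholangiocytes are the epithelial cells of bile ducts) that carries a viral large T antigen, an oncoprotein that binds and inactivates the RB family of pocket proteins. Since the line as a whole carries large T antigen, all 4 groups share it, vehicle included. After 6 h without serum, cells stayed overnight in serum-free medium with TGFβ at 10 ng/mL plus Aramchol at 30 µM, with TGFβ alone at that dose, with Aramchol alone at that dose, or with vehicle, with 3 libraries in each of the 4 groups. Aramchol is a conjugate of a bile acid and a saturated fatty acid, known as an inhibitor of stearoyl-CoA desaturase. The labels do not say whether the 3 libraries of a group came from separate cultures, so p-values measure the spread between these libraries only.

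CDK inhibitors slow the passage from G1 into S phase. INK4 proteins bind CDK4 and CDK6 and keep them from the D-type cyclins, while CIP/KIP proteins bind complexes of cyclins with CDK2 and with other CDKs, and both actions keep the pocket proteins in the form that holds E2F factors in check. In epithelial cells, arrest by TGFβ is classically tied to transcription of CDKN2B and CDKN1A through SMAD proteins together with SP1 and FOXO factors.

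Promoter windows of 300 bases (250 before a RefSeq transcription start and 50 from it, GRCh38.p14) were found for 6 of the 7 genes, with 2 windows for CDKN2A, 3 for CDKN2C and 1 for each of the other 4 genes. The windows printed here belong to the 4 genes that, among those with a window, differed most between TGFβ and vehicle, with 1 window for each, so that the motifs searched can be seen beside the expression values. Capitals mark GGGCGG (the GC box, read by SP1 and its relatives) on either strand, written as CCGCCC where it lies on the other strand, and adjacent matches may overlap.
CDKN1A promoter, chr6:36678464-36678763, plus strand: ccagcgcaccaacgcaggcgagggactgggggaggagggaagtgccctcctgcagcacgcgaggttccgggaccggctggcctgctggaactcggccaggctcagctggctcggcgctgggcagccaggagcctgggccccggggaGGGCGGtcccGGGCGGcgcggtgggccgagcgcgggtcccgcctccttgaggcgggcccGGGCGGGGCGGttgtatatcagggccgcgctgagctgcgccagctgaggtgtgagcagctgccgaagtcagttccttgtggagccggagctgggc
CDKN2B promoter, chr9:22009256-22009555, minus strand: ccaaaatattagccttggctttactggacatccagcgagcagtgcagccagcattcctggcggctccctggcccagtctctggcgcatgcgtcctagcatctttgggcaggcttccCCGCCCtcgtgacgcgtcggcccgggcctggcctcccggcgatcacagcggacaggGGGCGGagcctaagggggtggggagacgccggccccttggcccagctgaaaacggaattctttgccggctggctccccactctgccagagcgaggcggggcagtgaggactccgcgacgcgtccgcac
CDKN2A promoter, chr9:21974808-21975107, minus strand: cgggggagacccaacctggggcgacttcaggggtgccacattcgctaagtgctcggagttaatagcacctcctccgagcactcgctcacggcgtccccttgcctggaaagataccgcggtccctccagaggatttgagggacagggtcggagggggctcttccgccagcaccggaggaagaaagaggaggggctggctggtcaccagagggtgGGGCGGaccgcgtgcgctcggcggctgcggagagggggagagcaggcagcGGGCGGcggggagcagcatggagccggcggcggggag
CDKN2C promoter, chr1:50968456-50968755, plus strand: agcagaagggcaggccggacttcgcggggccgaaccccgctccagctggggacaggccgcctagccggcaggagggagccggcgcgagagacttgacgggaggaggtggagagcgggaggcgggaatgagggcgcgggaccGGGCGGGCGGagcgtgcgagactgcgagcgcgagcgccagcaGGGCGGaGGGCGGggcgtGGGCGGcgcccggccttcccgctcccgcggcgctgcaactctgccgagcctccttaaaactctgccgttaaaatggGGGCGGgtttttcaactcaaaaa
The CDKN1A window held 4 matches to GGGCGG, the CDKN2B window 2, the printed CDKN2A window, at the start used for p16, 2, and the printed CDKN2C window 6. CAGAC, the core of the SMAD box, was searched on both strands too and was in none of these 4 windows. The windows not printed differed from these: the second CDKN2A window held no GGGCGG and 1 CAGAC, and the other CDKN2C windows held 0 and 1 matches to GGGCGG and 3 and 1 to CAGAC. CDKN1B had 1 GGGCGG and no CAGAC, and CDKN2D had 3 and 1. Among 35116 promoter windows of this length in the same table, 45.0% held GGGCGG and 45.3% held CAGAC, so either motif is common. Both directions of change were represented: CDKN1A, CDKN2A and CDKN2B were higher with TGFβ and CDKN2C was lower.

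Total counts ran from 52279922 to 70339925 per library, a count of 3 corresponded to 0.0427 to 0.0574 CPM (counts scaled to a common library size), and no 2 libraries were duplicates. All 7 genes passed the filter on low counts. Levels are given as CPM scaled by TMM, and fold changes come from edgeR's quasi-likelihood test over 21567 genes with Benjamini-Hochberg adjustment. A gene was called at an adjusted p under 0.05. Since the libraries are bulk RNA, fewer cells of a type and less RNA per cell cannot be told apart. The tissue label was checked against marker genes. The 10 cholangiocyte markers summed to 736 to 908 CPM with TGFβ + Aramchol, 888 to 1036 with TGFβ, 434 to 616 with Aramchol and 311 to 758 with vehicle. KRT7 was at 275 to 999 CPM and KRT19 at 14.7 to 33.4 CPM, whereas CFTR and SCTR had at most 3 and 10 counts in any library. Markers of other cells included COL1A1, which reached 5646 CPM with TGFβ, and the 6 fibroblast markers summed to 3289 to 4600 CPM with TGFβ + Aramchol, 4533 to 6024 with TGFβ, 1151 to 1378 with Aramchol and 1090 to 1306 with vehicle. The 4 leukocyte markers summed to 5.29 to 7.11 CPM with TGFβ + Aramchol, 5.30 to 6.01 with TGFβ, 28.1 to 28.97 with Aramchol and 28.0 to 34.5 with vehicle. Most of that sum was CD14, at 5.18 to 34.3 CPM over the 12 libraries, while CD3E had no count, PTPRC at most 9 and CD68 at most 7. The 5 hepatocyte markers summed to 1.87 to 2.34 CPM with TGFβ + Aramchol, 1.36 to 2.23 with TGFβ, 6.23 to 8.42 with Aramchol and 5.39 to 11.01 with vehicle, mostly from APOB, and TTR had no count. The 4 endothelial markers summed to 8.06 to 10.6 CPM with TGFβ + Aramchol, 6.88 to 9.56 with TGFβ, 13.7 to 15.0 with Aramchol and 8.47 to 13.3 with vehicle. The fibroblast sum was thus higher, and the leukocyte and hepatocyte sums lower, in every library with TGFβ than in every library without it. The part of these markers in the results below was not tested.

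The libraries numbered 3 stood apart from those numbered 1 and 2 in all 4 groups: with a term for that number 12.6% of all genes were called (5.29% higher and 7.34% lower in libraries 3), and 3 of the 7 inhibitors were among them. CDKN2C was 0.23 higher on the log2 scale in libraries 3 (adjusted p = 0.00532), CDKN2D 0.25 higher (0.0169) and CDKN1B fell by 0.16 there (0.0375). The labels do not say what the number stands for. Within the vehicle group, library 3 was the lowest of the 3 for CDKN1A, CDKN1C, CDKN2A and CDKN2B and the highest for CDKN1B, CDKN2C and CDKN2D. The values of CDKN2D against vehicle are given with and without this library.

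**Figure D1:**
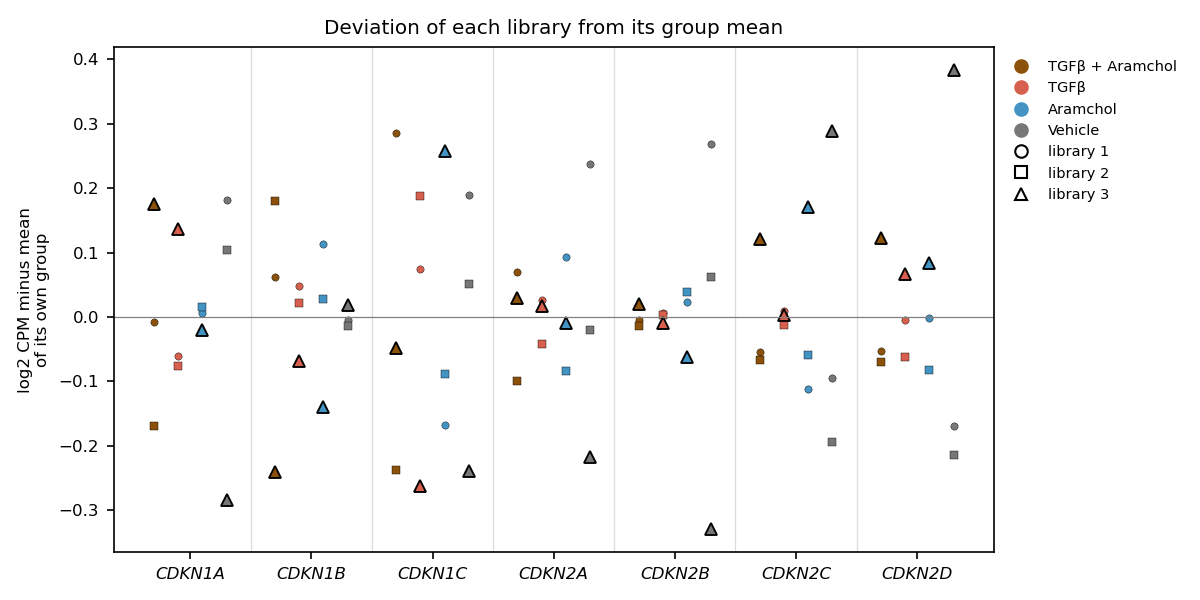
Deviation of each library's log2 CPM (y axis) from the mean of its own group for the 7 genes (x axis), with colours for the groups and triangles for the libraries numbered 3. Vehicle library 3 lay farther from its group mean than any library of the other groups for CDKN1A, CDKN2A, CDKN2B, CDKN2C and CDKN2D, and CDKN2D was highest in library 3 of every group.

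TGFβ alone was first set against vehicle, which asks how the inhibitors answered to TGFβ in these cells. CDKN1A and CDKN2B were each over 4 times as high with TGFβ, CDKN2A was higher by a smaller factor, and CDKN1B, CDKN1C and CDKN2C were lower. Thus 3 of the 7 genes rose and 3 fell, where 37.0% of all tested genes were called (18.9% higher and 18.1% lower). CDKN2D missed the threshold. The groups did not overlap for any of the 7 genes, as was so for 46.6% of all genes. Neither family moved as a block: CIP/KIP had 1 gene up and 2 down, INK4 had 2 up and 1 down. The median log2 fold change of the 7 was -0.31, which is the value of the uncalled CDKN2D, beside -0.03 for all genes tested.

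CDKN1A encodes p21, the inhibitor of cyclin and CDK2 complexes that also binds PCNA (chromosome 6, 36676460 to 36687337, plus strand, GRCh38). It was at 734, 727 and 842 CPM with TGFβ, against 206, 196 and 149 CPM with vehicle. Every TGFβ library was above every vehicle library, by a wide gap. The log2 fold change was 2.06 ± 0.11 (SE), or 4.18-fold, with a 95% interval of 1.83 to 2.29 and an adjusted p of 5.83e-10.

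CDKN1B encodes p27, which is best known for control through protein turnover (chromosome 12, 12685498 to 12722369, plus strand). It was at 56.7, 55.7 and 52.3 CPM with TGFβ, against 75.6, 75.1 and 76.8 CPM with vehicle, and the groups did not overlap. The fall was 0.724-fold (log2 -0.47 ± 0.09, adjusted p = 0.000531). Opposite directions for CDKN1A and CDKN1B were thus seen within the CIP/KIP family.

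CDKN1C encodes p57, an inhibitor expressed from the maternal copy of an imprinted locus (chromosome 11, 2883213 to 2885775, minus strand), and it was the lowest of the 7 genes. It was at 2.25, 2.43 and 1.78 CPM with TGFβ, against 3.98, 3.62 and 2.96 CPM with vehicle, from 97 to 257 counts per library over the 4 groups. No TGFβ library reached the lowest vehicle library. The log2 fold change was -0.71 ± 0.18, or 0.613-fold (adjusted p = 0.00531).

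CDKN2A encodes p16 and, from a second start and another reading frame, ARF, the p14 protein that holds MDM2 in check (chromosome 9, 21967752 to 21995301, minus strand). Counts per gene cannot split the 2 products. It was at 428, 408 and 425 CPM with TGFβ, against 279, 234 and 204 CPM with vehicle. All TGFβ libraries lay above all vehicle libraries, although the vehicle libraries were spread more widely (420.4 ± 10.6 CPM with TGFβ and 239 ± 38.1 CPM with vehicle, SD, n = 3 each). The rise was 1.76-fold (log2 0.82 ± 0.09, adjusted p = 2.34e-06).

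CDKN2B, whose product p15 is the INK4 protein classically induced by TGFβ in epithelial cells, lies beside CDKN2A (chromosome 9, 22002903 to 22009305, minus strand). It was at 193, 193 and 191 CPM with TGFβ, against 52.96, 45.9 and 34.98 CPM with vehicle. The TGFβ libraries were close to one another, and each was far above the vehicle libraries. The log2 fold change was 2.11 ± 0.10, or 4.32-fold, with an interval of 1.89 to 2.33 (adjusted p = 2.44e-10).

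CDKN2C encodes p18, an INK4 protein known as an E2F target in other cells (chromosome 1, 50960745 to 50974634, plus strand). It was at 31.3, 30.8 and 31.2 CPM with TGFβ, against 61.6, 57.4 and 80.3 CPM with vehicle. The groups were separated by a gap wider than the range of the TGFβ group. The fall was 0.468-fold (log2 -1.10 ± 0.11, adjusted p = 6.54e-07), and it was also called in the 8 libraries numbered 1 and 2.

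CDKN2D encodes p19, the smallest of the INK4 genes in this table by exon length (chromosome 19, 10566460 to 10569059, minus strand). It was at 10.97, 10.54 and 11.51 CPM with TGFβ, against 11.89, 11.52 and 17.44 CPM with vehicle. The lowest vehicle library was barely above the highest TGFβ library, and library 3 stood far above the other vehicle libraries. With a log2 fold change of -0.31 ± 0.13 the gene had an unadjusted p of 0.0295 and missed the threshold after adjustment (0.0731). The value rested on Vehicle replicate 3: without that library the log2 fold change was -0.09 (adjusted p = 0.481). It passed without Vehicle replicate 1 (0.0331) or 2 (0.0249), both of which leave library 3 in, and with a term for number 3 (0.0129).

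**Figure D2:**
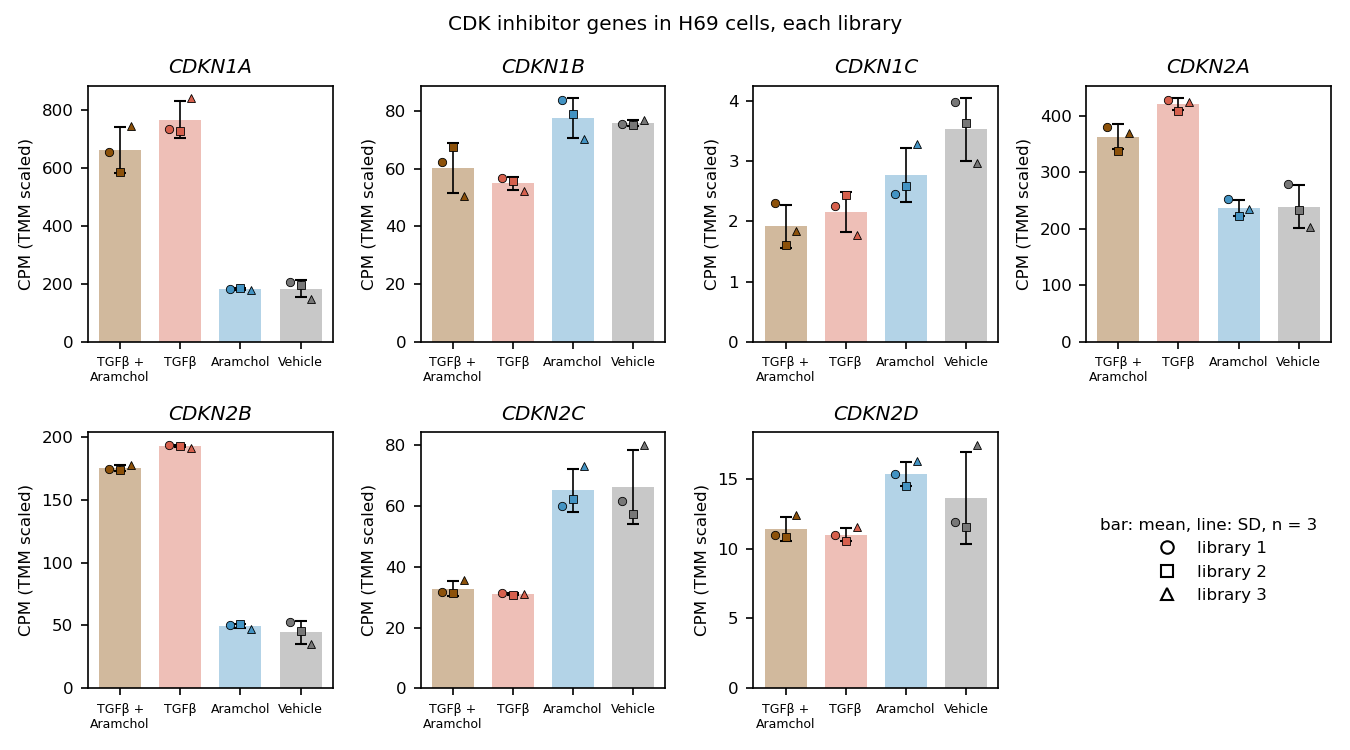
CPM (y axis, linear from 0) of the 7 inhibitor genes in each library, with bars for the mean and lines for the SD of the 3 libraries of TGFβ + Aramchol, TGFβ, Aramchol and vehicle. CDKN1A, CDKN2A and CDKN2B were higher in both groups with TGFβ, while CDKN1B, CDKN1C and CDKN2C were lower in both.

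The effect of TGFβ was measured a second time among cells that also received Aramchol. The 6 libraries used share none with the comparison above, although the spread in both tests came from all 12 libraries. Here all 7 genes were called, 3 higher and 4 lower, where 30.2% of all genes were called (16.0% higher and 14.2% lower). The groups again did not overlap for any of the 7, as for 44.6% of all genes. The 6 genes called with TGFβ alone had the same direction. CDKN1A was at 655, 586 and 744 CPM with TGFβ + Aramchol, against 184, 185 and 180.5 CPM with Aramchol, a 3.62-fold rise (log2 1.85 ± 0.11, adjusted p = 2.64e-09). CDKN2B was at 175, 173 and 178 CPM with TGFβ + Aramchol, against 50.4, 51.0 and 47.5 CPM with Aramchol, a 3.53-fold rise (log2 1.82 ± 0.10, adjusted p = 1.53e-09). In both genes the groups were far apart, and the libraries of CDKN2B were tight on both sides.

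CDKN2A was at 381, 338 and 370.0 CPM with TGFβ + Aramchol, against 252, 223 and 235 CPM with Aramchol (log2 0.62 ± 0.09, adjusted p = 5.81e-05). CDKN2C was at 31.6, 31.3 and 35.6 CPM with TGFβ + Aramchol, against 60.1, 62.3 and 73.1 CPM with Aramchol (log2 -0.99 ± 0.11, adjusted p = 2.53e-06). CDKN1B was at 62.3, 67.6 and 50.5 CPM with TGFβ + Aramchol, against 83.7, 78.9 and 70.2 CPM with Aramchol (log2 -0.37 ± 0.09, adjusted p = 0.00426). None of these 3 genes had overlapping groups, and CDKN1B had the narrowest gap.

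The other 2 calls depended on single libraries. CDKN1C was at 2.31, 1.61 and 1.83 CPM with TGFβ + Aramchol, against 2.45, 2.58 and 3.29 CPM with Aramchol (log2 -0.53 ± 0.18, adjusted p = 0.0357). It missed the threshold without TGFβ + Aramchol replicate 2 (0.132) or 3 (0.101), without Aramchol replicate 2 (0.0544) or 3 (0.162), and in the libraries numbered 1 and 2 (0.135). CDKN2D was at 10.96, 10.8 and 12.4 CPM with TGFβ + Aramchol, against 15.3, 14.5 and 16.2 CPM with Aramchol (log2 -0.43 ± 0.13, adjusted p = 0.0179). That call was lost without TGFβ + Aramchol replicate 1 (0.0640) or 2 (0.0695) and without Aramchol replicate 3 (0.0602).

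Cells given TGFβ + Aramchol were also set against vehicle, a comparison that shares the vehicle libraries with the first one. With both agents CDKN1A was 3.602-fold higher (log2 1.85), CDKN2B 3.93-fold higher (1.97) and CDKN2A 1.52-fold higher (0.60), while CDKN2C was 0.494-fold (-1.02), CDKN1C 0.545-fold (-0.88) and CDKN1B 0.793-fold (-0.34). These 6 genes were called, where 35.2% of all genes were (18.2% higher and 17.0% lower), and CDKN2D was not (log2 -0.26, adjusted p = 0.135). Without Vehicle replicate 3 its log2 fold change was -0.04 (adjusted p = 0.778), whereas it was called without Vehicle replicate 2 (0.0482), with a term for number 3 (0.0337) and with the replicate block (0.0410).

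Whether Aramchol changed the inhibitors in cells under TGFβ was asked by setting TGFβ + Aramchol against TGFβ. No inhibitor was called by edgeR, 1 of the 7 had an unadjusted p under 0.05, and DESeq2 called 0. Over all genes edgeR called 2.25%, and 17.2% had an unadjusted p under 0.05. The 3 genes that TGFβ raised were each lower on average with Aramchol added. This comparison shares the TGFβ libraries with TGFβ over vehicle, so the comparisons are not independent. CDKN2A averaged 363 ± 22.0 CPM with TGFβ + Aramchol and 420.4 ± 10.6 CPM with TGFβ, with no overlap between the groups (log2 -0.21, interval -0.40 to -0.02, unadjusted p = 0.0293, adjusted p = 0.232). CDKN2B averaged 175 ± 2.13 CPM with TGFβ + Aramchol and 193 ± 1.07 CPM with TGFβ, again with no overlap (log2 -0.14, interval -0.34 to 0.07, adjusted p = 0.522). The spread that the model assigns to CDKN2B comes from all 12 libraries and is moderated with that of all genes. Among the groups, vehicle varied most (44.6 ± 9.06 CPM), and its part in the missing call was not tested. CDKN2B stayed uncalled in all 21 alternative fits, with a lowest adjusted p of 0.108. These included the fit with only the groups compared and the fit without Vehicle replicate 3.

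CDKN1A averaged 662 ± 79.2 CPM with TGFβ + Aramchol and 768 ± 64.2 CPM with TGFβ, and the groups overlapped (log2 -0.21, interval -0.44 to 0.01, adjusted p = 0.309). CDKN2C, which TGFβ lowered, was slightly higher with Aramchol added, without overlap (32.8 ± 2.44 CPM with TGFβ + Aramchol and 31.1 ± 0.235 CPM with TGFβ, log2 0.08, interval -0.15 to 0.31, adjusted p = 0.773). Groups without overlap occurred in 23.6% of all genes in this comparison. CDKN1B (0.13), CDKN1C (-0.17) and CDKN2D (0.05) had overlapping groups and adjusted p of 0.488, 0.704 and 0.894. The outcome depended on the libraries used: in the 8 libraries numbered 1 and 2, CDKN1A (log2 -0.24, adjusted p = 0.00471), CDKN2A (0.0465) and CDKN1B (log2 0.21, adjusted p = 0.0235) were called. Over all genes, calls in those 8 libraries numbered 1853, against 486 in the main fit.

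Aramchol alone against vehicle gave no called inhibitor by edgeR or by DESeq2, and none of the 7 had an unadjusted p under 0.05, where edgeR called 0.357% of all genes and 11.7% had such a p. CDKN1A averaged 183 ± 2.34 CPM with Aramchol and 184 ± 30.3 CPM with vehicle (log2 -0.01, interval -0.23 to 0.22). CDKN2A averaged 237 ± 14.5 CPM with Aramchol and 239 ± 38.1 CPM with vehicle (log2 -0.01). CDKN2B averaged 49.6 ± 1.85 CPM with Aramchol and 44.6 ± 9.06 CPM with vehicle (log2 0.15, interval -0.06 to 0.37). All 7 genes had overlapping groups, while 16.0% of all genes had groups without overlap.

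CDKN1C, at 2.77 ± 0.450 CPM with Aramchol and 3.52 ± 0.519 CPM with vehicle (log2 -0.34, adjusted p = 0.468), and CDKN2D, with a log2 fold change of 0.17 (0.638), had the largest differences of the 7 in size. In the libraries numbered 1 and 2 both were called, CDKN1C at -0.59 (0.0279) and CDKN2D at 0.35 (0.0108). Without Vehicle replicate 3 alone, CDKN2D was called at 0.39 (0.0270). Over all genes 1544 were called in libraries 1 and 2 and 611 without Vehicle replicate 3, against 77 in the main fit.

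The effect of TGFβ with Aramchol minus its effect without was tested as an interaction. The interaction includes the libraries of TGFβ over vehicle, so it is not independent of that comparison. None of the 7 passed by edgeR or DESeq2, none had an unadjusted p under 0.05, while 0.0139% of all genes were called by edgeR and 5.27% had such a p. The difference was -0.29 for CDKN2B (log2, interval -0.59 to 0.01), -0.21 for CDKN1A (-0.52 to 0.11) and -0.20 for CDKN2A (-0.47 to 0.07). For the genes that TGFβ lowered it was 0.11 for CDKN2C, 0.10 for CDKN1B and 0.17 for CDKN1C. These intervals leave room for a blunting of the CDKN1A and CDKN2B rises by up to 0.52 and 0.59 on the log2 scale, beside rises of 2.06 and 2.11 with TGFβ alone.

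**Figure D3:**
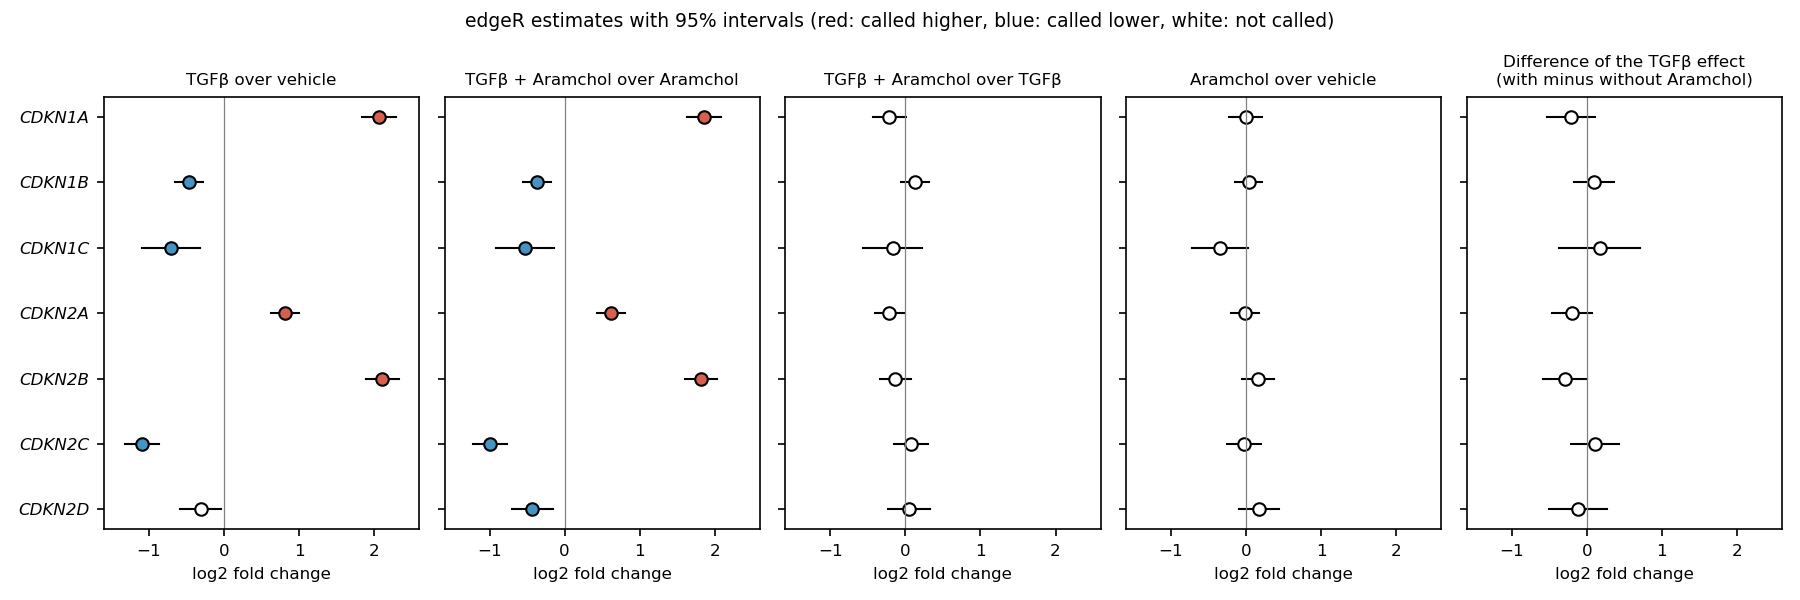
Log2 fold change (x axis, points) with its 95% interval (lines) of the 7 genes (rows) in 4 comparisons and in the difference of the TGFβ effects. In the panels of TGFβ over vehicle and of TGFβ + Aramchol over Aramchol, 6 and 7 points are coloured as called, and in the Aramchol panels and the difference none is.

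To compare the genes with one another, CPM were divided by the exonic length of each gene in the deposited table. CDKN1A was the highest with TGFβ at 256 CPM per kb, followed by CDKN2A at 108, CDKN2B at 48.1, CDKN2C at 10.3, CDKN2D at 7.31, CDKN1B at 5.93 and CDKN1C at 0.868. With TGFβ + Aramchol the order was the same (220.9, 93.4, 43.8, 10.9, 7.57, 6.498 and 0.773 CPM per kb), although CDKN2D and CDKN1B overlapped. Cells without TGFβ had a different order. With Aramchol, CDKN1A (61.1) and CDKN2A (60.9) overlapped at the top, CDKN2C (21.6) came before CDKN2B (12.4), and CDKN2D (10.2), CDKN1B (8.38) and CDKN1C (1.12) followed. Vehicle cells had CDKN2A (61.5) and CDKN1A (61.3) at the top with overlap, then CDKN2C at 22.0, CDKN2B at 11.2, CDKN2D at 9.05, CDKN1B at 8.19 and CDKN1C at 1.42 CPM per kb. Among vehicle libraries CDKN2B overlapped CDKN2D, and CDKN2D overlapped CDKN1B.

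The place of CDKN1B depends on its length. The deposited table gives it 9255 exonic bases, whereas GENCODE 29 gives 2811. Divided by the shorter length, CDKN1B stood at 21.4 CPM per kb with TGFβ + Aramchol, 19.5 with TGFβ, 27.6 with Aramchol and 27.0 with vehicle. That would put it above CDKN2C in every group, and above CDKN2B as well in the groups without TGFβ. The same deposited counts were divided by either length, so reads outside the 2811 bases could inflate the values from the shorter length. Among the other 6 genes the order changed only in vehicle, where CDKN1A then came before CDKN2A.

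**Figure D4:**
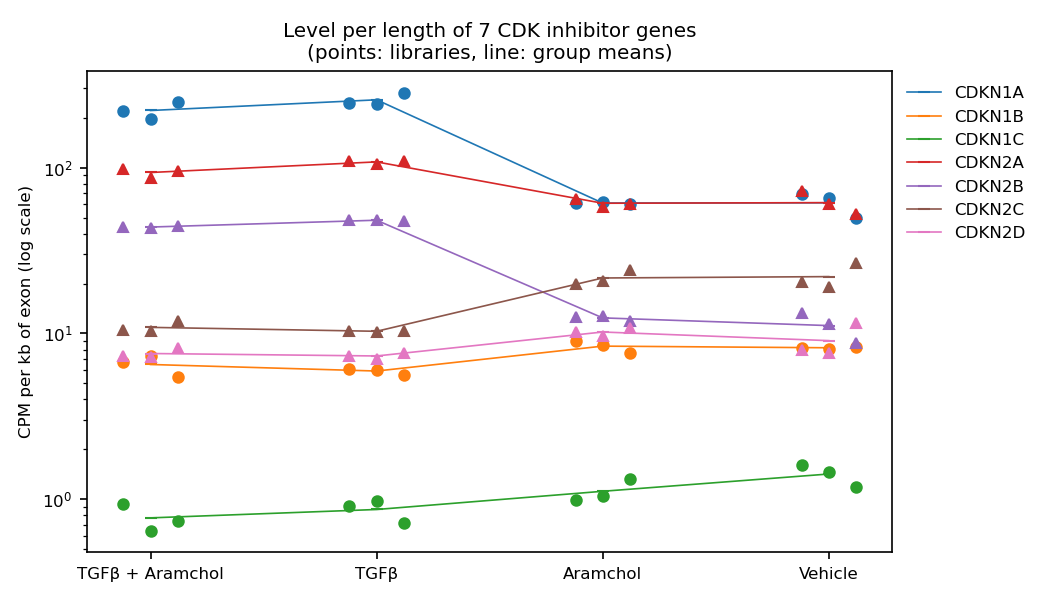
CPM per kb of exon (y axis, log scale) of the 7 genes by group, with points for libraries (circles for CIP/KIP, triangles for INK4) and lines joining group means. CDKN2B lies above CDKN2C in the groups with TGFβ and below it in those without.

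Within the INK4 family the makeup of the transcripts differed with TGFβ while CDKN2A stayed the most abundant member. CDKN2B made up 28.2 ± 1.00% of the INK4 sum per kb with TGFβ + Aramchol, 27.7 ± 0.534% with TGFβ, 11.8 ± 0.815% with Aramchol and 10.7 ± 1.66% with vehicle. CDKN2C made up 6.99 ± 0.417% with TGFβ + Aramchol, 5.92 ± 0.0585% with TGFβ, 20.5 ± 2.03% with Aramchol and 21.4 ± 4.72% with vehicle. The share of CDKN2A was 60.0 ± 1.35% with TGFβ + Aramchol, 62.2 ± 0.505% with TGFβ, 57.9 ± 2.10% with Aramchol and 59.1 ± 5.60% with vehicle. Thus CDKN2B and CDKN2C exchanged places, and the share of CDKN2A overlapped between groups with and without TGFβ.

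Against their kinase targets, the INK4 transcripts summed to 155.7 ± 6.65 CPM per kb with TGFβ + Aramchol, 174 ± 3.004 with TGFβ, 105 ± 4.06 with Aramchol and 104 ± 8.44 with vehicle. The sum of CDK4 and CDK6 was 31.0 ± 1.22 CPM per kb with TGFβ + Aramchol, 32.3 ± 0.682 with TGFβ, 27.0 ± 0.108 with Aramchol and 27.9 ± 3.12 with vehicle. Their ratio was 5.02 ± 0.0237 with TGFβ + Aramchol, 5.39 ± 0.125 with TGFβ, 3.90 ± 0.153 with Aramchol and 3.73 ± 0.327 with vehicle. Every library with TGFβ had a higher ratio than every library without it. For CDKN2B alone the ratio to CDK4 plus CDK6 was 1.41 ± 0.0464 with TGFβ + Aramchol, 1.49 ± 0.0394 with TGFβ, 0.460 ± 0.0186 with Aramchol and 0.396 ± 0.0383 with vehicle. These are ratios of transcripts, with no measure of protein. CDKN2A was the largest part of the INK4 sum, and its counts hold ARF as well as p16. The sum is therefore not one of INK4 protein transcripts alone.

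CDKN1A dominated the CIP/KIP sum in each group, at 96.8 ± 0.746% with TGFβ + Aramchol, 97.4 ± 0.334% with TGFβ, 86.5 ± 0.584% with Aramchol and 86.3 ± 1.97% with vehicle. With the GENCODE 29 lengths, which raise CDKN1B, the shares of CDKN1A from the group means were 90.7% with TGFβ + Aramchol, 92.5% with TGFβ, 67.6% with Aramchol and 68.0% with vehicle. The counts were not redone for those lengths, so these shares could understate CDKN1A. The CIP/KIP sum over CDK2, their main kinase partner, was 9.71 ± 1.19 with TGFβ + Aramchol, 11.9 ± 1.505 with TGFβ, 3.19 ± 0.0497 with Aramchol and 3.05 ± 0.237 with vehicle. This ratio used the deposited lengths only, so it too depends on the length taken for CDKN1B.

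The genes around the inhibitors in the cell cycle were then described from 5 lists. Of 16 cyclin and CDK genes 4 rose and 4 fell with TGFβ over vehicle, where 18.9% of all genes were higher and 18.1% lower. CDK6, a kinase held by INK4 proteins, was at 54.2 ± 5.21 CPM with TGFβ and 29.8 ± 0.909 CPM with vehicle (log2 0.86, adjusted p = 5.90e-08). CCND1, its cyclin partner, was at 141 ± 20.6 CPM with TGFβ and 83.6 ± 19.3 CPM with vehicle (0.76, 0.00191). CCNE1, a cyclin partner of CDK2, rose by 0.66 (1.55e-05), and CCNA2, the S phase cyclin, fell by 0.35 (0.000231). Thus the kinase and cyclin genes CDK6 and CCND1 rose in the same comparison in which CDKN2B rose. CDK4 (0.13, 0.180), CDK2 (-0.06, 0.460), CCND3 (-0.15, 0.0780) and CCNE2 (-0.04, 0.737) were not called, and CCND2 was barely detected, at 0.159 CPM with TGFβ and 0.260 CPM with vehicle.

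Of 13 pocket protein and E2F genes 4 rose and 6 fell, beside 18.9% higher and 18.1% lower among all genes. E2F2, an activator of S phase genes, was at 7.29 ± 0.10 CPM with TGFβ and 25.9 ± 2.00 CPM with vehicle (log2 -1.83, adjusted p = 7.84e-11), and E2F8, an E2F repressor, was at 14.2 ± 0.796 CPM with TGFβ and 26.5 ± 1.61 CPM with vehicle (-0.90, 7.94e-08). The pocket protein genes RBL1 (-0.52, 1.56e-05) and RBL2 (-0.16, 0.0246) and E2F1 (-0.16, 0.0320) fell, and RB1 was not called (0.05, 0.671). Among 23 E2F-responsive S phase genes 3 rose and 8 fell (18.9% and 18.1% of all genes), led by the replication licensing factor CDT1 (-0.61, 3.02e-06) and the ribonucleotide reductase subunit RRM2 (-0.35, 5.06e-05). The median over these 23 genes was -0.08, beside -0.03 for all genes.

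Of 25 tested regulators of inhibitor transcription (of 26 listed) 9 rose and 8 fell, beside 18.9% and 18.1% of all genes. JUNB, an AP-1 subunit, was at 321 ± 18.4 CPM with TGFβ and 64.0 ± 6.25 CPM with vehicle (log2 2.33, adjusted p = 3.24e-12). KDM6B, a histone demethylase that removes the Polycomb mark and is known to act at the CDKN2A locus, was at 112 ± 4.53 CPM with TGFβ and 43.0 ± 2.88 CPM with vehicle (1.38, 9.99e-10). SMAD7, the inhibitory SMAD that TGFβ induces, was at 88.4 ± 1.09 CPM with TGFβ and 8.75 ± 1.49 CPM with vehicle. MYC, known to repress CDKN1A and CDKN2B, was at 96.8 ± 8.13 CPM with TGFβ and 72.3 ± 24.0 CPM with vehicle and was not called (0.42, 0.0989). RUNX3, the far point of this list at a log2 fold change of 4.99 and named after its value was seen, was close to the detection limit at 0.224 CPM with TGFβ and at most 0.0165 CPM in a vehicle library.

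Of 19 genes for turnover of the inhibitor proteins 4 rose and 4 fell, a share near the 37.0% of all genes called in either direction. The cullin genes CUL4B (-0.37, adjusted p = 1.40e-05) and CUL1 (0.32, 3.59e-05), scaffolds of ubiquitin ligases, moved in opposite directions. SKP2, the ubiquitin ligase subunit that recognises p27, was not called (-0.20, 0.0608). Outside the turnover list, MDM2, the ubiquitin ligase that ARF holds in check, was at 162 ± 10.5 CPM with TGFβ and 79.3 ± 5.75 CPM with vehicle (log2 1.03, adjusted p = 2.26e-08), and it fell to 120.3 ± 9.26 CPM with TGFβ + Aramchol, against 162 ± 10.5 CPM with TGFβ (-0.43, 0.0110).

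**Figure D5:**
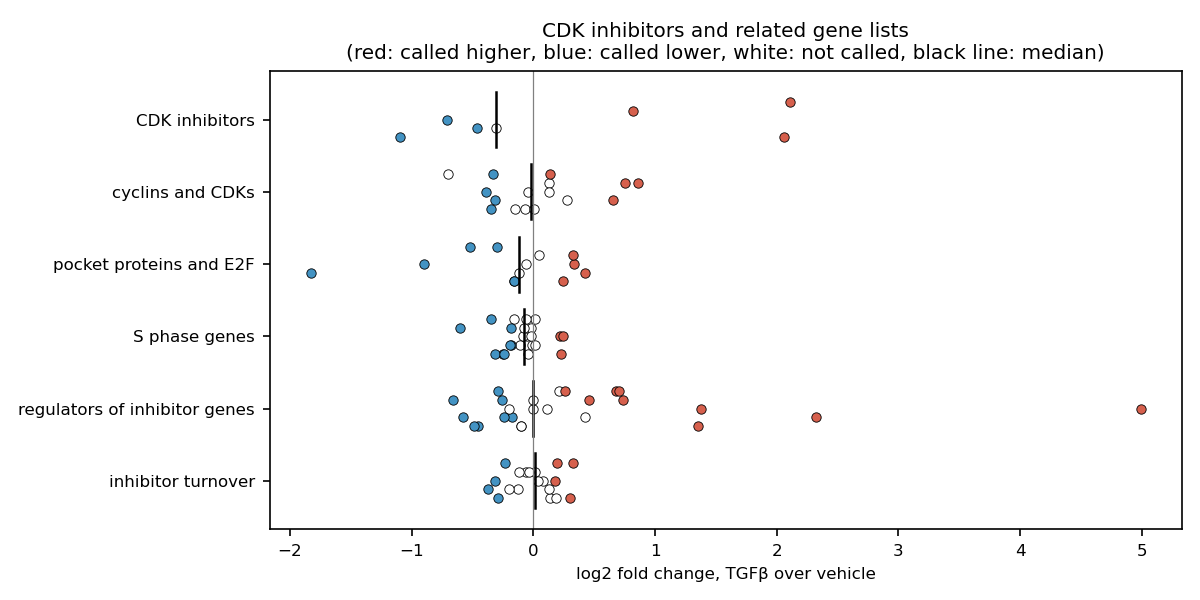
Log2 fold change of TGFβ over vehicle (x axis) for the 7 inhibitors and for the genes of 5 related lists (rows), with each point a gene, red called higher, blue called lower and white not called, and a black line at the median. The inhibitors are split between the sides, and the median of the S phase genes is -0.08.

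With Aramchol added to TGFβ, few genes of the 5 lists were called against TGFβ alone, where 2.25% of all genes were, and all that were are named here for that reason. No cyclin, CDK, S phase or regulator gene was called. Among the E2F genes 2 rose: E2F2 was at 9.69 ± 0.405 CPM with TGFβ + Aramchol and 7.29 ± 0.10 CPM with TGFβ (0.41, 0.0181), and E2F1 was at 107 ± 6.15 CPM with TGFβ + Aramchol and 90.7 ± 1.82 CPM with TGFβ (0.24, 0.0324). In the turnover list CKS1B, the cofactor of SKP2, rose by 0.25 (0.0401). For Aramchol over vehicle the 5 lists held 1 called gene (0.357% of all genes were called), ID3, an inhibitor of helix-loop-helix factors, which fell by 0.91 (0.0231). No listed gene was called in the interaction.

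Genes whose log2 CPM followed an inhibitor most closely over the 12 libraries were found among 10793 other protein coding genes with a mean of at least 5 CPM, by the root mean square difference of centred log2 CPM. For CDKN1A these were LMCD1 (0.096), TUBA4A (0.097) and RRAD (0.103). For CDKN2B they were NAV1 (0.075), JUN (0.081) and CDKN1A itself (0.110), so CDKN1A and CDKN2B were each close to the other in pattern. The distance of CDKN2A to CDKN1A was 0.625 and to CDKN2B 0.634, and its nearest genes were VASP (0.053), RRAS (0.059) and NACAD (0.074). CDKN2C was nearest to CREG1 (0.095), MPP1 (0.115) and ACBD7 (0.115), CDKN1B to CHAMP1 (0.061), PHF10 (0.063) and PDE12 (0.064), and CDKN2D to ETFDH (0.074), CD47 (0.080) and CILK1 (0.083). CDKN1C had the largest distances, to APOE (0.133), ACBD4 (0.154) and TPCN1 (0.159).

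Reads could be mixed between overlapping or similar genes at a few of these loci, since the strand setting of the counts is not given. The antisense gene CDKN2B-AS1 shares 593 exonic bases, 15.3% of the exon length of CDKN2A, but was at 11.03 ± 0.591 CPM with TGFβ and 12.3 ± 1.39 CPM with vehicle, far below CDKN2A, and was not called (log2 -0.15, adjusted p = 0.354). DINOL shares 4.87% of the exon length of CDKN1A and was at 0.178 CPM with TGFβ and 0.130 CPM with vehicle. CDKN2C shares 617 exonic bases (20.4%) with an unnamed gene that had no count. The counts of these overlapping genes cannot settle how reads in the shared exons were assigned. CDKN2A and CDKN2B, which are similar in coding sequence, shared 31 words of 50 bases in GENCODE 29 transcripts (0.681% of those of CDKN2A and 0.765% of those of CDKN2B). The other 5 inhibitors shared none with any gene in this search. It compared words on the transcribed strand only, so sharing with antisense genes was not checked. For CDKN1B the search covered 2855 words, beside 9255 exonic bases in the deposited table.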

How the data were processed

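The submitters' processing notes name STAR 2.7.9a, featureCounts of Subread, DESeq2 and the build GRCh38. The authors deposited whole-number counts per gene and library, and only these were used. Annotation release and strand setting: not given in the sources used here. After filterByExpr and TMM (factors 0.930 to 1.09), edgeR 4.0.16 under R 4.3.3 fitted a quasi-likelihood model to the 12 libraries with 1 mean per group. The biological coefficient of variation was 8.90%. Calls use a Benjamini-Hochberg adjusted p under 0.05 within each of 6 contrasts. Intervals are 95% intervals from the standard error and the t quantile of the fit. Log2 CPM used a prior count of 2. Alternatives were other scalings and filters, DESeq2 1.42.0, a replicate block, a term for number 3, subsets of libraries and leaving out each library. The members and lists were chosen with earlier results of these data known, so the lists are no independent evidence. Genes named are the members, a fixed set of partners, the 2 smallest p per list, genes within 50 kb of a member, and the 3 genes closest in pattern. The table's exonic lengths gave CPM per kb. Promoters are from RefSeq (GRCh38.p14). The fit was tested on simulated data. Some genes, and 1 listed gene set that depends on one of them, are not reported here.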

Additional observations from a re-analysis of the deposited data

How the results depend on the processing

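The TGFβ over vehicle calls of CDKN1A, CDKN1B, CDKN1C, CDKN2A, CDKN2B and CDKN2C held in all 21 alternatives, with log2 ranges of 1.86 to 2.15, -0.50 to -0.42, -0.82 to -0.59, 0.71 to 0.94, 1.96 to 2.25 and -1.19 to -0.94. CDKN2D was called in 6 of the 21, including upper quartile scaling (0.0464), no filter (0.0218) and the replicate block (adjusted p = 0.0168). Same-numbered libraries of TGFβ and vehicle deviated together weakly (correlations 0.00739, 0.0158 and 0.111 for numbers 1, 2 and 3). For number 3 the correlation was 0.221 for Aramchol and vehicle and 0.189 for TGFβ + Aramchol and TGFβ. It was 0.159 for TGFβ + Aramchol and Aramchol, and 0.150 for TGFβ + Aramchol and vehicle. The main fit had no term for the number. For TGFβ over vehicle the replicate block gave 9090 called genes, against 7978. Leaving out 1 library gave 6833 to 7996 called genes and 6 to 7 inhibitors, for TGFβ + Aramchol over Aramchol 5262 to 7363 and 5 to 7, and over vehicle 6467 to 7625 and 6 to 7.

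For TGFβ + Aramchol over TGFβ, 486 genes were called, 1278 with no filter, 1042 by DESeq2, 1519 with the replicate block, 1683 with a term for number 3, 1853 in libraries 1 and 2, 960 with only the groups compared and 55 to 1209 leaving out 1 library. Inhibitors called were 2 with no filter (CDKN1A, 0.00784, and CDKN2A, 0.0113), 3 in libraries 1 and 2, 1 with only the groups compared (CDKN2A, 0.0446) and 0 leaving out any 1 library. Aramchol over vehicle gave 77 genes (51 up and 26 down, but 37 up and 38 down under upper quartile scaling), 531 with no filter, 395 by DESeq2, 464 with the replicate block, 538 with a term for number 3, 1544 in libraries 1 and 2, 5 with only the groups compared and 16 to 611 leaving out 1 library, with 2 inhibitors in libraries 1 and 2 and 0 to 1 leaving out 1 library. The interaction gave 3 genes, 151 with no filter, 27 by DESeq2, 23 with the replicate block, 31 with a term for number 3, 191 in libraries 1 and 2 and 0 to 7 leaving out 1 library, with no inhibitor in any. The causes were not tested.

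Only uncalled values changed sign. In libraries 1 and 2 CDKN2C became 0.042 for Aramchol over vehicle and -0.024 for the interaction. Leaving out 1 library, Aramchol over vehicle ranged from -0.13 to 0.086 for CDKN1A, -0.025 to 0.10 for CDKN1B, -0.11 to 0.12 for CDKN2A and -0.12 to 0.13 for CDKN2C, the interaction from -0.0036 to 0.21 for CDKN1B and -0.052 to 0.20 for CDKN2C, and TGFβ + Aramchol over TGFβ from -0.014 to 0.084 for CDKN2D. The lengths of GENCODE 29 were an alternative chosen after seeing the data. CDKN1C, with 97 to 257 counts per library, was the least precisely measured gene (SE 0.18).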

Other observations

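Genes within 50 kb of an inhibitor were described by the same test, and not all are named. In TGFβ over vehicle 37.0% of all genes were called, and shared control of neighbours and inhibitors was not tested. Beside CDKN1A, the low RAB44 was at 0.388 CPM with TGFβ and 0.0999 CPM with vehicle (log2 1.96, adjusted p = 0.00218). Beside CDKN2A and CDKN2B on chromosome 9, MTAP, an enzyme of methionine salvage, was at 84.7 ± 5.48 CPM with TGFβ and 68.0 ± 4.35 CPM with vehicle (log2 0.32, adjusted p = 0.00108), and the divergent transcript CDKN2A-DT was at 1.45 ± 0.112 CPM with TGFβ and 0.632 ± 0.129 CPM with vehicle (1.19, 0.000610). Beside CDKN1C, SLC22A18 fell by 0.76 (adjusted p = 0.000158) and the low SLC22A18AS by 0.92 (0.0494), while PHLDA2 (0.33, 0.0967) was not called. Beside CDKN1B, APOLD1 fell by 0.59 (0.000453) and CREBL2 by 0.25 (0.00792), while GPR19, whose span overlaps it, was not called (-0.49, 0.168). CDKN2C had the neighbour FAF1, which was not called (-0.10, 0.108).

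The largest difference among these neighbours belonged to S1PR5, a receptor for sphingosine 1-phosphate, 48529 bases from CDKN2D. It was at 26.5 ± 1.83 CPM with TGFβ and 2.80 ± 0.109 CPM with vehicle (log2 3.24, adjusted p = 3.47e-12). It was also lower with TGFβ + Aramchol than with TGFβ (-0.55, 0.0105), whereas CDKN2D was not called in either comparison. The gene AP1M2, also near CDKN2D, was 0.95 higher with TGFβ (0.00174), and KRI1 (0.09), ATG4D (0.05) and SLC44A2 (0.08) were not called.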
